A study of Homo sapiens with 27 samples.

Results

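Expression of 38 genes of fatty acid synthesis, desaturation and lipid storage was described across MM134 and SUM44 cells adapted to growth without estrogen. MM134 (MDA-MB-134VI) and SUM44 (SUM44PE) are estrogen receptor-positive lines established from invasive lobular breast carcinoma. The members are a list of gene names, found by their Ensembl identifiers among the 60619 genes of the deposited RNA-Seq table and chosen by name with earlier results of these data known. They cover 6 roles, with 7 genes of synthesis, 5 of desaturation, 7 of elongation, 5 of activation to acyl-CoA, 9 of glycerolipid assembly, and 5 of droplets, lipolysis and carriage.

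Each of the 9 groups had 3 libraries, from wells of the same culture, so p-values speak for these cultures. Before collection, the MM134 parent was kept without hormones for 3 days in medium with charcoal-stripped serum. The 4 MM134 LTED (long-term estrogen-deprived) variants (LTED-A, LTED-B, LTED-D, LTED-E), below also variants A, B, D and E, were derived independently from MM134 cells kept in that serum for the long term. SUM44F cells, which served as the parent of SUM44 LTED-A and LTED-B, are SUM44PE cells that were first adapted to another serum-containing medium, and the SUM44PE culture itself made the last group. SUM44F and SUM44PE were labelled parental and were deprived of hormones for the same time. At collection all cells were in hormone-deprived medium, so the comparisons set long against short deprivation. Per the paper, charcoal stripping takes out other lipophilic compounds as well as estradiol. The length of deprivation of estrogen, that of other lipophilic compounds and other changes over long culture cannot be told apart. In bulk RNA, fewer cells of a type and less RNA per cell cannot be told apart either.

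Cells make fatty acids from acetyl-CoA, which comes from citrate through ACLY or from acetate through ACSS2. Acetyl-CoA carboxylases (ACACA, ACACB) make malonyl-CoA, and fatty acid synthase (FASN) joins these units into palmitate with NADPH from enzymes such as ME1. Elongases (ELOVL) and desaturases (SCD, FADS) then lengthen and unsaturate the chains, with SCD making monounsaturated acids and FADS1 and FADS2 making polyunsaturated ones from dietary precursors. Acyl-CoA synthetases (ACSL) activate free acids, GPAM, AGPAT, LPIN and DGAT enzymes build triglycerides from them, and perilipins coat the droplets in which triglycerides are stored. Breast carcinoma cells are known for making much of their own fatty acid, and many of these enzymes are targets of the transcription factor SREBP1.

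Levels are given as CPM, read counts relative to library size after TMM scaling. Differences are log2 fold changes with their standard errors (SE) from edgeR's quasi-likelihood test, fitted on all genes. A gene was called where it changed more than 1.5-fold with a Benjamini-Hochberg adjusted p under 0.001. Libraries summed to between 28582990 and 134881725 estimated counts. In SUM44 LTED-A, replicates 2 and 3 were closer to each other than sampling noise allows, differing by less than it, and were averaged into 1 sample, which left 2 samples in that group. Summed luminal markers (EPCAM, KRT8, KRT18, KRT19, GATA3, FOXA1, ESR1) were at 4380 to 8460 CPM in every sample, and CDH1, which lobular carcinoma cells lose or keep low, was at 8.36 to 24.6 CPM. The 4 adipocyte markers (ADIPOQ, LEP, LPL, PLIN1) summed to 1.51 to 3.16 CPM in MM134 samples, 7.60 to 8.59 CPM in SUM44PE, 4.73 to 5.55 CPM in SUM44F, 2.58 to 2.72 CPM in SUM44 LTED-A and 3.46 to 4.27 CPM in SUM44 LTED-B. LPL was between 0 and 0.0286 CPM and ADIPOQ between 0.371 and 1.08 CPM. PLIN1, a perilipin also on the list of other pathway genes, made up most of the sum in the SUM44 parental cultures, at 3.25 to 4.04 CPM in SUM44F and 6.27 to 7.08 CPM in SUM44PE.

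SUM44F replicate 1 stood apart. Its 5 fibroblast markers summed to 327 CPM, against 8.55 and 7.34 CPM in the other SUM44F libraries and 4.59 to 33.6 CPM in all other samples, and its 6 immune markers to 10.4 CPM, against 2.73 and 2.91 CPM. Smaller amounts were present in MM134 parental replicate 3 (33.6 CPM of fibroblast markers, against 20 and 23.0) and LTED-D replicate 2 (25.7, against 12.1 and 11.8). The immune list was also at 0.944 to 1.46 CPM in MM134 parental cells and 3.06 to 15.9 CPM in the MM134 variants, most of it CD68 (2.22 to 15.2 CPM in the variants), while PTPRC, which marks blood cells, was at 0.0696 to 0.365 CPM in MM134 samples. The endothelial list was at 25.8 to 40.5 CPM in SUM44F, 10.8 to 11.1 CPM in SUM44PE and 2.80 to 4.51 CPM in the SUM44 variants. Most of it in SUM44F was PECAM1 (21.7 to 27.3 CPM), with VWF at 4.02 to 12.4 CPM and CDH5 at 0.0891 to 0.825 CPM. The part of these signals in the results was not tested, and SUM44 log2 fold changes without SUM44F replicate 1 are given for the genes with values in every sample.

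The clearest pattern was a split within desaturation and elongation in MM134. FASN and SCD were higher and all 3 FADS desaturases lower in all 4 MM134 LTED variants, while in the SUM44 variants FASN and SCD were higher and no FADS gene was called lower. Of 37 members tested in MM134, 9 were called higher and 10 lower in LTED-A, where 20.3% of all genes tested were called, 10.5% higher and 9.82% lower. In LTED-B it was 7 higher and 11 lower (background 15.9%, with 8.11% higher and 7.75% lower). LTED-D had 9 and 10 (17.6%, with 9.63% and 7.95%), and LTED-E 10 and 9 (19.0%, with 8.71% and 10.3%). Of 35 members tested in SUM44, 8 were higher and 7 lower in LTED-A (13.7%, with 6.39% and 7.28%). For LTED-B the counts were 6 and 6 (17.3%, with 8.69% and 8.57%). The members did not shift as a whole, since their median log2 fold change lay between 0.02 and 0.14 in the 6 comparisons, beside -0.09 to 0.02 over all genes tested. With SUM44F replicate 1 left out, SUM44 LTED-A had 7 higher and 7 lower, and LTED-B again 6 and 6.

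**Figure D1:**
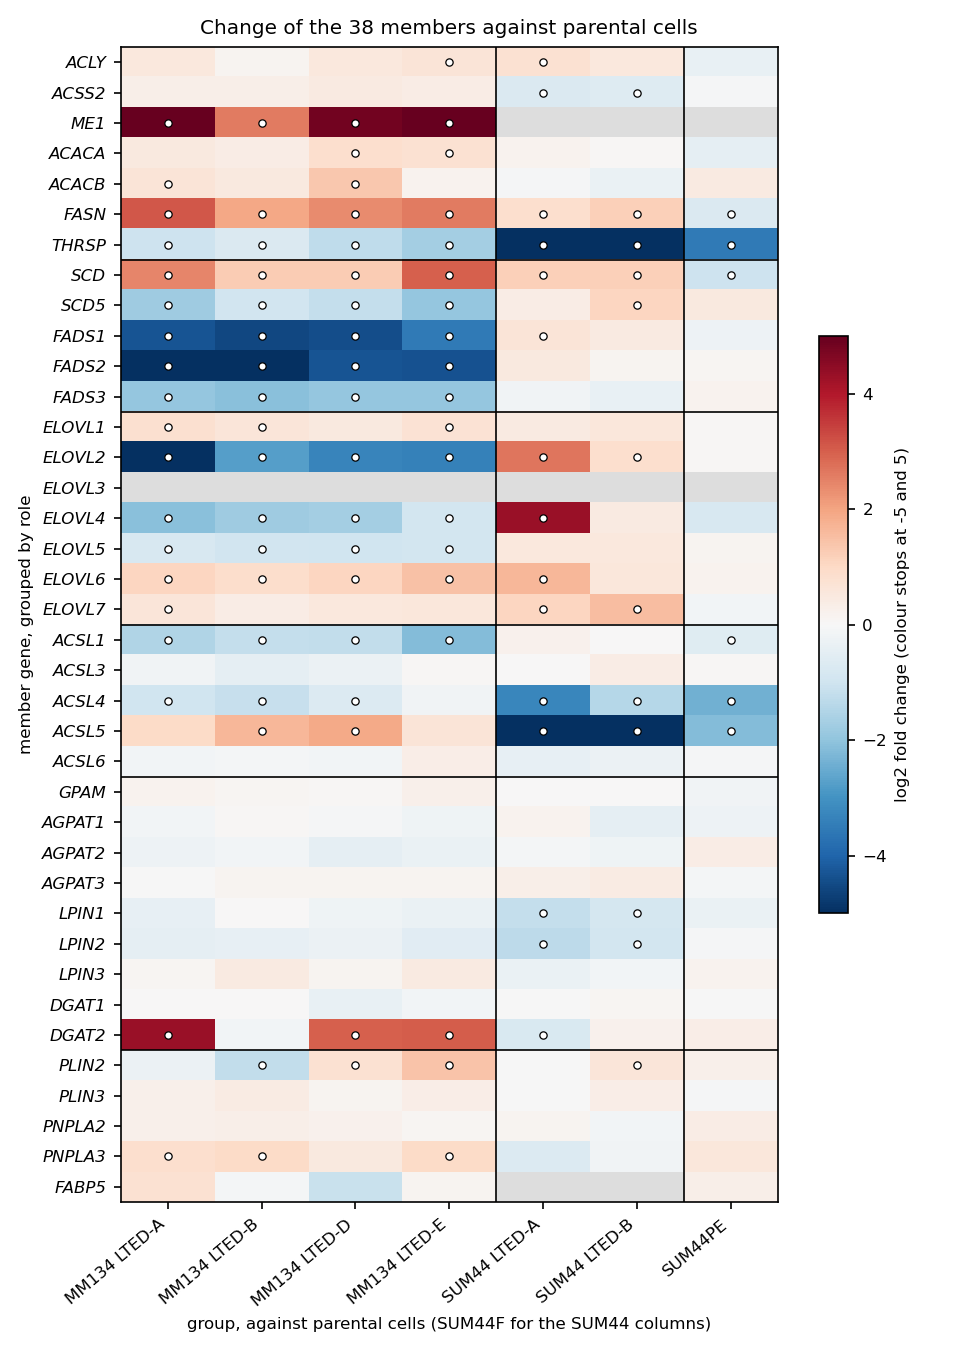
Log2 fold change of each member against parental cells (rows, grouped by role; columns, the 6 LTED comparisons and SUM44PE against SUM44F). Red is higher and blue lower, the colour stops at -5 and 5, open dots mark called changes and grey marks genes not tested. In MM134 LTED-A, all 5 desaturases and all 6 elongases tested were called but 1 of 9 assembly genes (20.3% of all genes tested). In SUM44 LTED-A it was 2 of 5, 4 of 6 and 3 of 9 (13.7% of all genes tested). In MM134 LTED-B, LTED-D and LTED-E, 5, 4 and 5 of the 6 elongases were called.

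In all 4 MM134 variants, 4 members were called higher (ME1, FASN, SCD and ELOVL6), as were 4.08% of all genes tested, and 9 were called lower (THRSP, SCD5, FADS1, FADS2, FADS3, ELOVL2, ELOVL4, ELOVL5 and ACSL1; background 4.44%). In both SUM44 variants, 4 were higher (FASN, SCD, ELOVL2 and ELOVL7; background 3.87%) and 6 lower (ACSS2, THRSP, ACSL4, ACSL5, LPIN1 and LPIN2; background 4.75%). The 4 MM134 comparisons share their parental libraries, as do the 2 SUM44 comparisons, so agreement among them is not independent. FASN and SCD were higher and THRSP lower in all 6 variants. A further 12 members were called in none of the 6, namely ELOVL3, ACSL3, ACSL6, GPAM, AGPAT1, AGPAT2, AGPAT3, LPIN3, DGAT1, PLIN3, PNPLA2 and FABP5. Of these, ELOVL3 was not tested, and FABP5 was not tested in the SUM44 variants. The share of all genes called in none of the 6 was not computed.

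Among the synthesis genes, FASN, the enzyme that assembles palmitate (chr17:82078338-82098294, hg38), was higher in all 6 variants, by 1.48 ± 0.09 more in MM134 than in SUM44 (interaction, log2 scale). FASN measured 373, 374 and 351 CPM in the MM134 parental libraries, 3020, 3110 and 3440 CPM for LTED-A, 1420, 1470 and 1350 CPM for LTED-B, 1880, 1770 and 1930 CPM for LTED-D and 2260, 2100 and 2200 CPM for LTED-E. All 12 variant libraries were above all parental ones. For FASN, the fitted log2 fold changes in variants A, B, D and E were 3.12 ± 0.05, 1.95 ± 0.05, 2.36 ± 0.05 and 2.59 ± 0.05, with a largest adjusted p of 1.49e-16. In SUM44, FASN was at 388, 417 and 334 CPM in SUM44F, 771 and 592 CPM in SUM44 LTED-A and 829, 893 and 878 CPM in SUM44 LTED-B. The fit put FASN at log2 fold changes of 0.85 ± 0.13 for SUM44 LTED-A and 1.19 ± 0.12 for LTED-B (adjusted p 0.000606 and 2.29e-05). Without SUM44F replicate 1 the value for LTED-A was 0.86 ± 0.16 with an adjusted p of 0.0021, so the call was lost, while LTED-B kept 1.20 ± 0.15. It was also lost without SUM44F replicate 2 (0.93) and without LTED-A replicate 1 (0.69). The 34 expressed genes nearest FASN (up to 20 on each side, at 5 CPM or more) were at a median of 0.81 (log2 fold change) in SUM44 LTED-B, where 26 of them were called higher, and of 0.29 in LTED-A.

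ME1, the cytosolic malic enzyme that yields NADPH, was nearly absent from parental cells and differed widely among the variants. ME1 measured 0.0286, 0.0270 and 0.0324 CPM in the MM134 parental libraries, 8.30, 8.76 and 8.28 CPM for LTED-A, 0.116, 0.236 and 0.224 CPM for LTED-B, 0.775, 0.842 and 1.05 CPM for LTED-D and 21.2, 21.9 and 20.8 CPM for LTED-E. The parental libraries held 1 count each. Pooled over libraries, the ratio to parental cells was 289 in LTED-A (exact 95% counting interval 98.6 to 1400), 6.55 in LTED-B (1.99 to 34.0). The same ratio was 31.0 in LTED-D (10.3 to 153), while LTED-E reached 731 (250 to 3550). ME1 was called higher in all 4 variants, but in LTED-B only with 5 to 10 counts per library, and that call was lost (2.43 to 2.68) without LTED-B replicate 2 or 3 or any 1 parental library. In SUM44, no library held more than 3 counts and ME1 was not tested.

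The 2 acetyl-CoA carboxylases and ACLY changed less. ACACA, which supplies malonyl-CoA in the cytosol, had log2 fold changes of 0.49, 0.36, 0.84 and 0.78 in MM134 variants A, B, D and E, and passed the call in LTED-D and LTED-E. ACACB, the mitochondrial carboxylase linked to the control of fatty acid oxidation, was called higher in LTED-A (0.65 ± 0.04) and LTED-D (1.33 ± 0.05). ACLY, which makes acetyl-CoA from citrate, was called in MM134 LTED-E (0.65 ± 0.03) and in SUM44 LTED-A (0.78 ± 0.10). Neither carboxylase was called in SUM44 against SUM44F, but against SUM44PE ACACA was called higher in LTED-A and ACACB lower in LTED-B. Without SUM44F replicate 1, ACLY in LTED-A was at 0.81 ± 0.12.

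ACSS2, which makes acetyl-CoA from acetate, was lower in both SUM44 variants. ACSS2 was at 51.6, 53.1 and 43.2 CPM in SUM44F, 29.1 and 30.5 CPM in SUM44 LTED-A and 31.9, 32 and 31.4 CPM in SUM44 LTED-B. The SUM44 log2 fold changes of ACSS2 were -0.72 ± 0.09 for LTED-A (adjusted p 0.000153) and -0.63 ± 0.08 for LTED-B (adjusted p 0.000122). In MM134 its log2 fold changes were 0.29 to 0.46 and it was called in no variant, and the difference between lines was 1.02 ± 0.07. Without SUM44F replicate 1 the values were -0.69 ± 0.11 and -0.60 ± 0.10, both called. The LTED-A call was lost (-0.65) without SUM44F replicate 2 or LTED-A replicate 1, and the LTED-B call (-0.64 to -0.57) without SUM44F replicate 2 or any 1 LTED-B library, and also against SUM44PE.

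THRSP, a small nuclear protein linked to lipogenic gene expression, was lower in all 6 variants. THRSP measured 3.00, 2.73 and 2.98 CPM in the MM134 parental libraries, 1.52, 1.32 and 1.41 CPM for LTED-A, 1.81, 1.82 and 1.62 CPM for LTED-B, 1.19, 1.18 and 1.18 CPM for LTED-D and 1.09, 0.614 and 0.991 CPM for LTED-E. Its log2 fold changes were -1.03 ± 0.14, -0.72 ± 0.15, -1.28 ± 0.16 and -1.69 ± 0.16 (SE) in variants A, B, D and E (largest adjusted p 0.000384). The call in LTED-B was lost (-0.75 to -0.67) without any 1 LTED-B library or without parental replicate 1 or 3. THRSP was at 51.3, 50.8 and 39.6 CPM in SUM44F, 1.31 and 0.842 CPM in SUM44 LTED-A and 1.29, 1.21 and 1.58 CPM in SUM44 LTED-B. The fit put THRSP at log2 fold changes of -5.53 ± 0.22 for SUM44 LTED-A and -5.08 ± 0.18 for LTED-B (adjusted p 3.12e-08 and 9.92e-09), and -5.46 and -5.02 without SUM44F replicate 1. SUM44PE cells, which are not LTED cells, also had low THRSP, at 3.96, 4.20 and 4.18 CPM.

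**Figure D2:**
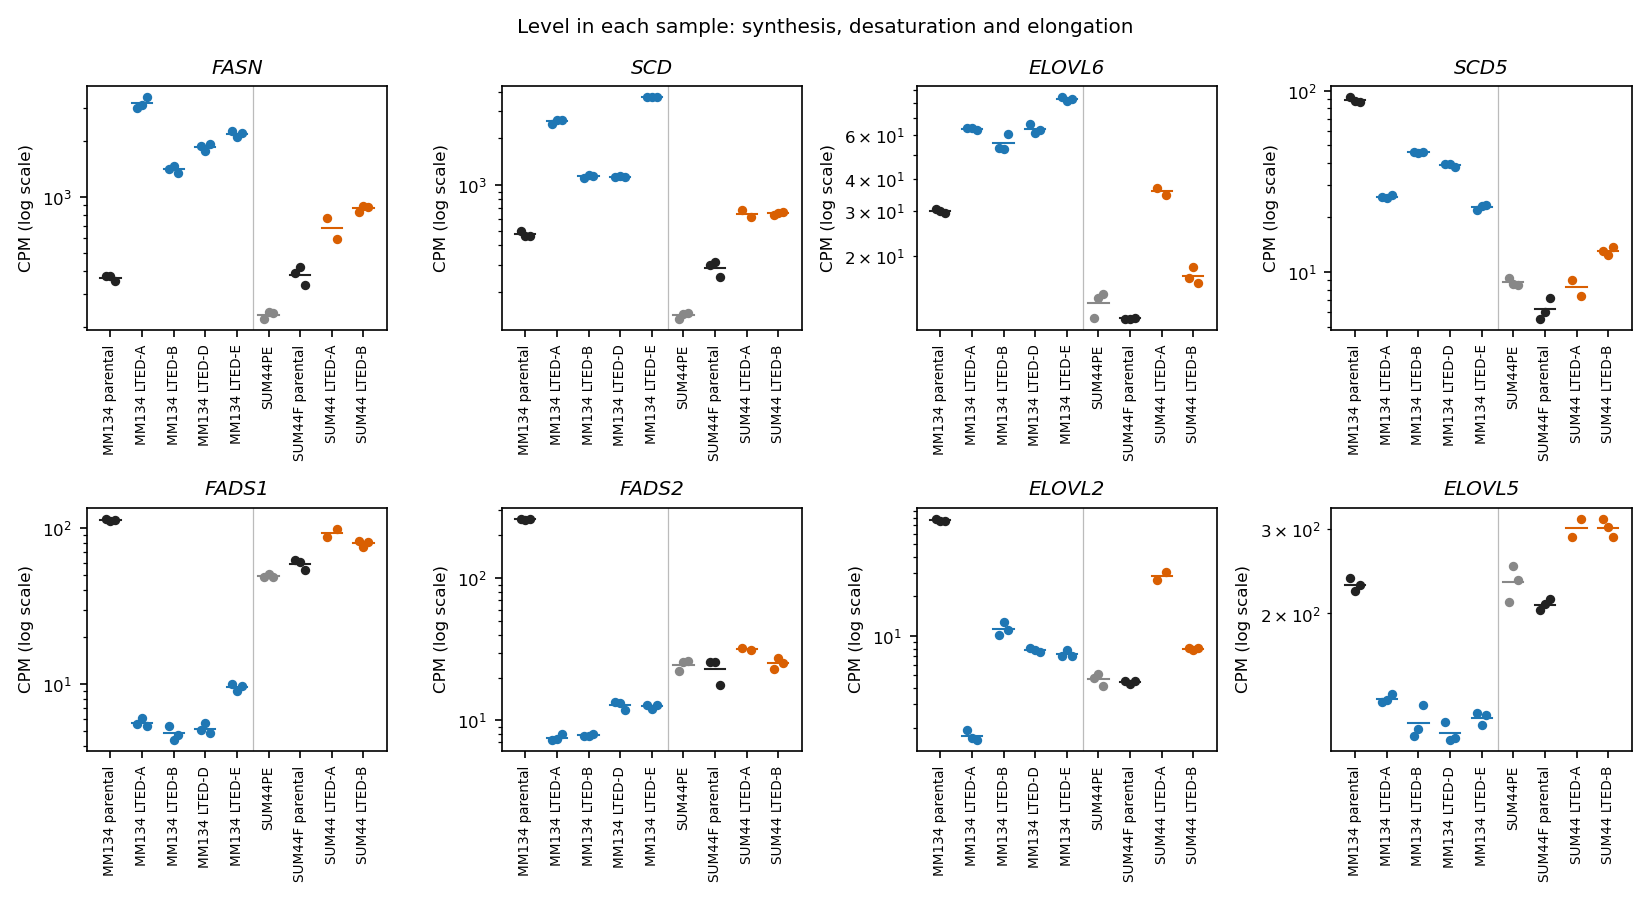
Level of 8 members in each sample (points; horizontal bars are group means) in CPM on a log axis, with parental groups in black, SUM44PE in grey, MM134 variants in blue and SUM44 variants in orange. FASN, SCD and ELOVL6 were higher in all MM134 variant libraries than in parental ones, while SCD5, FADS1, FADS2, ELOVL2 and ELOVL5 were lower there.

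Among the desaturases, SCD, the main desaturase for monounsaturated acids (chr10:100347233-100364826), was higher in all 6 variants. SCD measured 495, 460 and 461 CPM in the MM134 parental libraries, 2490, 2630 and 2650 CPM for LTED-A, 1100, 1150 and 1140 CPM for LTED-B, 1120, 1130 and 1120 CPM for LTED-D and 3710, 3720 and 3720 CPM for LTED-E. The log2 fold changes of SCD came to 2.45 ± 0.03 in LTED-A, 1.27 ± 0.03 in LTED-B, 1.27 ± 0.03 in LTED-D and 2.99 ± 0.03 in LTED-E, and the largest adjusted p was 1.57e-16. All variant libraries lay above all parental ones. In SUM44, SCD was at 297, 314 and 248 CPM in SUM44F, 678 and 615 CPM in SUM44 LTED-A and 633, 651 and 663 CPM in SUM44 LTED-B. Against SUM44F, SCD had a log2 fold change of 1.18 ± 0.11 for LTED-A and of 1.18 ± 0.10 for LTED-B, with adjusted p of 1.66e-05 and 6.94e-06. Without SUM44F replicate 1 both SUM44 values were 1.20.

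SCD5, another stearoyl-CoA desaturase, went the other way in MM134. SCD5 measured 92.1, 87.4 and 86.3 CPM in the MM134 parental libraries, 25.9, 25.6 and 26.6 CPM for LTED-A, 45.9, 45.4 and 45.9 CPM for LTED-B, 39.5, 39.4 and 37.7 CPM for LTED-D and 22.1, 23.0 and 23.4 CPM for LTED-E. Its log2 fold changes were -1.77 ± 0.03, -0.95 ± 0.03, -1.18 ± 0.03 and -1.95 ± 0.03 (SE) in variants A, B, D and E (largest adjusted p 2.43e-14). In SUM44, SCD5 was at 5.53, 6.00 and 7.19 CPM in SUM44F, 9.07 and 7.40 CPM in SUM44 LTED-A and 13.1, 12.4 and 13.7 CPM in SUM44 LTED-B. The SUM44 log2 fold changes of SCD5 were 0.39 ± 0.14 for LTED-A (adjusted p 0.051) and 1.06 ± 0.13 for LTED-B (adjusted p 6.33e-05), and 0.31 and 0.98 without SUM44F replicate 1. Only LTED-B was called among the SUM44 variants, so SCD5 was called in opposite directions in the 2 lines.

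FADS1 and FADS2, the delta-5 and delta-6 desaturases of polyunsaturated acid synthesis, showed some of the largest falls among the members. FADS1 measured 115, 111 and 112 CPM in the MM134 parental libraries, 5.56, 6.05 and 5.34 CPM for LTED-A, 5.41, 4.35 and 4.70 CPM for LTED-B, 5.07, 5.59 and 4.81 CPM for LTED-D and 9.96, 8.98 and 9.66 CPM for LTED-E. The log2 fold changes of FADS1 came to -4.33 ± 0.06 in LTED-A, -4.54 ± 0.06 in LTED-B, -4.44 ± 0.07 in LTED-D and -3.55 ± 0.06 in LTED-E, and the largest adjusted p was 3.71e-19. FADS2 measured 263, 255 and 262 CPM in the MM134 parental libraries, 7.24, 7.35 and 8.04 CPM for LTED-A, 7.80, 7.72 and 8.04 CPM for LTED-B, 13.5, 13.3 and 11.8 CPM for LTED-D and 12.8, 12.1 and 12.8 CPM for LTED-E. The variant libraries of both genes were all far below the parental ones. Against parental cells, FADS2 gave log2 fold changes of -5.12 ± 0.05, -5.04 ± 0.05, -4.33 ± 0.05 and -4.36 ± 0.05 in the same order, with adjusted p up to 1.64e-21.

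In SUM44 neither gene was called lower. In SUM44, FADS1 was at 62.1, 60.3 and 53.6 CPM in SUM44F, 87.0 and 98.4 CPM in SUM44 LTED-A and 82.7, 75.7 and 81.2 CPM in SUM44 LTED-B. The SUM44 log2 fold changes of FADS1 were 0.66 ± 0.09 for LTED-A (adjusted p 0.000151) and 0.44 ± 0.08 for LTED-B (adjusted p 0.000925), and 0.70 and 0.48 without SUM44F replicate 1. FADS1 was called in LTED-A only, and not (0.57) without its averaged replicates 2 and 3. In SUM44, FADS2 was at 25.7, 25.7 and 17.8 CPM in SUM44F, 32.4 and 31.2 CPM in SUM44 LTED-A and 23.1, 27.5 and 25.5 CPM in SUM44 LTED-B. Against SUM44F, FADS2 had a log2 fold change of 0.47 ± 0.15 for LTED-A and of 0.14 ± 0.13 for LTED-B, with adjusted p of 0.029 and 0.417, and 0.55 and 0.22 without SUM44F replicate 1. Neither SUM44 variant was called for FADS2.

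FADS3, a related desaturase beside them on chromosome 11, was also lower in MM134. FADS3 measured 22.0, 21.6 and 22.2 CPM in the MM134 parental libraries, 5.69, 5.70 and 6.10 CPM for LTED-A, 5.80, 4.65 and 4.80 CPM for LTED-B, 5.36, 5.87 and 6.02 CPM for LTED-D and 5.53, 5.59 and 5.79 CPM for LTED-E. The log2 fold changes of FADS3 came to -1.92 ± 0.07 in LTED-A, -2.10 ± 0.07 in LTED-B, -1.92 ± 0.07 in LTED-D and -1.95 ± 0.07 in LTED-E, and the largest adjusted p was 1.17e-13. In SUM44 it was called in neither variant (-0.19 ± 0.10 and -0.37 ± 0.09). FADS1 (minus strand, chr11:61799627-61829318) lies within the span of FADS2 (plus strand, chr11:61792980-61867354) in GENCODE v44, and the strand setting of the counting is not stated, so reads of the pair may not be fully separated. The 40 expressed genes around FADS1 were at medians of 0.24 in MM134 LTED-A and 0.32 in MM134 LTED-B (log2 fold change).

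The promoters of SCD, FADS1, FADS2 and ELOVL2 are shown as those of a desaturase that was higher in all 6 variants and of the 3 genes with the most negative difference between lines. Each is 250 bases before to 50 after a RefSeq transcription start on GRCh38.p14, read 5′ to 3′ on the gene's strand, with CCAAT and GGGCGG (a GC box), on either strand, in capitals.
SCD promoter (plus strand, chr10:100346983-100347282): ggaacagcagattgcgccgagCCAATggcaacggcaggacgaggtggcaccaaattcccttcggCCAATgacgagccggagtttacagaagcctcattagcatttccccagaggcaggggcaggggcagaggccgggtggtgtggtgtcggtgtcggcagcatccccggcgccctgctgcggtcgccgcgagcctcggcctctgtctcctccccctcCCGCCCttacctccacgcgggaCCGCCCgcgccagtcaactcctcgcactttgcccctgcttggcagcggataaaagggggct
FADS1 promoter (minus strand, chr11:61816954-61817253): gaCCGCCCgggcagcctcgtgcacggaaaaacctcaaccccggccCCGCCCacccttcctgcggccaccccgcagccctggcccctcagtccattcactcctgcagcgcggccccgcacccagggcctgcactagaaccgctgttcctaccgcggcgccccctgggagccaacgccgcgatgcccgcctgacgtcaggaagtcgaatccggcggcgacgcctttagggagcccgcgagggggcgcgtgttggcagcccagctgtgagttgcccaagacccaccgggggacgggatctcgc
FADS2 promoter (plus strand, chr11:61816154-61816453): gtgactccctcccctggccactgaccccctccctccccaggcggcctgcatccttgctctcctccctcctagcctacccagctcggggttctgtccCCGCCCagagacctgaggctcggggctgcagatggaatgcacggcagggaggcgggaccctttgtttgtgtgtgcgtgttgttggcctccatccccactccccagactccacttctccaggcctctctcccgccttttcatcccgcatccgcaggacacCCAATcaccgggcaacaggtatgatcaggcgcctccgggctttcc
ELOVL2 promoter (minus strand, chr6:11044256-11044555): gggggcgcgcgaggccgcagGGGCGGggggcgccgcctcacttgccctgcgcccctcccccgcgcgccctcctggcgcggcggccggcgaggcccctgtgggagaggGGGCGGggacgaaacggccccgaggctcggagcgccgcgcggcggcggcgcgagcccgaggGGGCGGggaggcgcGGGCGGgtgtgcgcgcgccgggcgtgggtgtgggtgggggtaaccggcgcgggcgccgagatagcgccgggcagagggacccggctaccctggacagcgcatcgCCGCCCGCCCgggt
The SCD sequence holds 2 CCAAT and 2 GC boxes, FADS1 holds 0 and 2, FADS2 1 and 1, and ELOVL2 0 and 6. The table has another FADS2 start, whose window (chr11:61815953-61816252) holds 0 and 0. Of the 38 members, 32 had a promoter in the RefSeq table. FASN, DGAT1, DGAT2, LPIN3, PNPLA3 and FABP5 had none there and were not searched. CCAAT was found for 19 of these 32 and GGGCGG for 28, where 39.7% and 48.3% of all genes in the table hold them. The sterol response element TCACNCCAC was found for ACSL1, ACSL6 and PNPLA2 (3 of 32, against 1.39% of all genes), and the E-box CACGTG for ELOVL4, ELOVL5, LPIN2 and PLIN2 (against 8.77%). Both strands were searched, and a match is a run of letters and not a measured binding site.

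The 7 elongases differ in the chains they extend. ELOVL6, which extends the saturated and monounsaturated products of FASN and SCD, was higher. ELOVL6 measured 30.7, 29.9 and 29.6 CPM in the MM134 parental libraries, 64.0, 63.7 and 62.5 CPM for LTED-A, 53.2, 52.9 and 60.3 CPM for LTED-B, 66.2, 61.0 and 62.7 CPM for LTED-D and 84.4, 81.3 and 82.6 CPM for LTED-E. Against parental cells, ELOVL6 gave log2 fold changes of 1.07 ± 0.04, 0.89 ± 0.05, 1.09 ± 0.05 and 1.47 ± 0.04 in the same order, with adjusted p up to 7.4e-12. ELOVL6 was at 11.3, 11.3 and 11.4 CPM in SUM44F, 37.0 and 34.8 CPM in SUM44 LTED-A and 16.3, 18.0 and 15.7 CPM in SUM44 LTED-B. Against SUM44F, ELOVL6 had a log2 fold change of 1.66 ± 0.09 for LTED-A and of 0.55 ± 0.08 for LTED-B, with adjusted p of 2.4e-07 and 0.000282, and 1.66 and 0.55 without SUM44F replicate 1. LTED-A was called and LTED-B was not, missing the fold limit.

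ELOVL2 and ELOVL5, which extend polyunsaturated acids, were lower in MM134. ELOVL2 measured 78.6, 75.7 and 75.8 CPM in the MM134 parental libraries, 1.90, 1.67 and 1.60 CPM for LTED-A, 10.1, 12.7 and 11.1 CPM for LTED-B, 8.14, 7.78 and 7.48 CPM for LTED-D and 6.99, 7.75 and 7.04 CPM for LTED-E. For ELOVL2, the fitted log2 fold changes in variants A, B, D and E were -5.46 ± 0.08, -2.76 ± 0.06, -3.29 ± 0.07 and -3.39 ± 0.06, with a largest adjusted p of 5.06e-17. LTED-A libraries were the lowest, and no variant library reached the parental level. ELOVL2 was at 4.56, 4.28 and 4.55 CPM in SUM44F, 26.8 and 30.9 CPM in SUM44 LTED-A and 8.07, 7.79 and 8.12 CPM in SUM44 LTED-B. The SUM44 log2 fold changes of ELOVL2 were 2.69 ± 0.10 for LTED-A (adjusted p 1.93e-08) and 0.84 ± 0.09 for LTED-B (adjusted p 3.95e-05), and 2.71 and 0.85 without SUM44F replicate 1. Both SUM44 variants were called, so ELOVL2 moved in opposite directions in the 2 lines.

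ELOVL5 measured 237, 223 and 229 CPM in the MM134 parental libraries, 131, 132 and 136 CPM for LTED-A, 111, 115 and 129 CPM for LTED-B, 119, 109 and 110 CPM for LTED-D and 124, 117 and 123 CPM for LTED-E. Against parental cells, ELOVL5 gave log2 fold changes of -0.79 ± 0.04, -0.95 ± 0.04, -1.01 ± 0.05 and -0.91 ± 0.04 in the same order, with adjusted p up to 1.74e-11. In SUM44, ELOVL5 was higher by less than the fold limit in both variants (0.53 ± 0.08 and 0.53 ± 0.08). ELOVL4, which makes very long chains, was lower in MM134 and higher in SUM44 LTED-A. ELOVL4 measured 15.1, 15 and 16.4 CPM in the MM134 parental libraries, 3.64, 3.62 and 3.76 CPM for LTED-A, 3.78, 4.89 and 4.83 CPM for LTED-B, 4.62, 4.77 and 4.78 CPM for LTED-D and 8.92, 7.29 and 8.32 CPM for LTED-E. Its log2 fold changes were -2.08 ± 0.09, -1.78 ± 0.09, -1.70 ± 0.09 and -0.91 ± 0.08 (SE) in variants A, B, D and E (largest adjusted p 2.86e-08).

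ELOVL4 was at 0.347, 0.0586 and 0.100 CPM in SUM44F, 2.62 and 3.68 CPM in SUM44 LTED-A and 0.241, 0.222 and 0.197 CPM in SUM44 LTED-B. The highest SUM44F library was replicate 1, and both LTED-A samples were above it. The SUM44 log2 fold changes of ELOVL4 were 4.32 ± 0.46 for LTED-A (adjusted p 3.64e-05) and 0.45 ± 0.53 for LTED-B (adjusted p 0.512). Without that library the values were 5.21 ± 0.34 and 1.33 ± 0.39, the latter not called. The LTED-A call was lost (4.03) without its averaged replicates 2 and 3.

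ELOVL1 and ELOVL7, which extend saturated chains, were among the members that rose. ELOVL1 measured 36.8, 38.4 and 40.9 CPM in the MM134 parental libraries, 64.9, 65.0 and 71.0 CPM for LTED-A, 58.3, 59.5 and 58.4 CPM for LTED-B, 49.5, 55.4 and 55.1 CPM for LTED-D and 61.9, 63.0 and 65.2 CPM for LTED-E. The log2 fold changes of ELOVL1 came to 0.79 ± 0.05 in LTED-A, 0.61 ± 0.05 in LTED-B, 0.48 ± 0.05 in LTED-D and 0.72 ± 0.05 in LTED-E, and the largest adjusted p was 9.68e-08. ELOVL1 passed the call in 3 variants and missed the fold limit in LTED-D, and in LTED-B also without parental replicate 1 (0.57). ELOVL7 was at 3.36, 3.26 and 4.05 CPM in SUM44F, 6.87 and 8.16 CPM in SUM44 LTED-A and 11.2, 10.0 and 10.5 CPM in SUM44 LTED-B. The fit put ELOVL7 at log2 fold changes of 1.08 ± 0.14 for SUM44 LTED-A and 1.56 ± 0.13 for LTED-B (adjusted p 0.000131 and 3.92e-06), and 1.04 and 1.52 without SUM44F replicate 1. In MM134, ELOVL7 was called in LTED-A only, at 0.60 ± 0.05, a call lost (0.56 to 0.58) without LTED-A replicate 1 or 2 or parental replicate 2. In SUM44 LTED-A the call of ELOVL7 was lost (0.94) without the averaged replicates 2 and 3. ELOVL3 had at most 0.0989 CPM and was not tested.

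Among the genes of activation, ACSL1, an acyl-CoA synthetase tied to triglyceride synthesis and oxidation, was lower in MM134. ACSL1 measured 24.5, 21.4 and 22.8 CPM in the MM134 parental libraries, 8.0, 7.87 and 8.11 CPM for LTED-A, 9.86, 9.40 and 10.5 CPM for LTED-B, 9.75, 9.74 and 9.78 CPM for LTED-D and 5.11, 4.75 and 5.25 CPM for LTED-E. Its log2 fold changes were -1.52 ± 0.06, -1.20 ± 0.06, -1.22 ± 0.06 and -2.17 ± 0.06 (SE) in variants A, B, D and E (largest adjusted p 3.33e-12). In SUM44 it was called in neither variant (0.20 ± 0.07 and 0.00 ± 0.07). ACSL3, the most abundant of the 5 per length in both parental lines and a droplet-associated synthetase, was called in none of the 6 variants, with log2 fold changes between -0.46 and 0.39.

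ACSL4, which prefers arachidonic acid, was low in all cells. ACSL4 measured 3.66, 2.86 and 3.01 CPM in the MM134 parental libraries, 1.67, 1.69 and 1.43 CPM for LTED-A, 1.28, 1.42 and 1.54 CPM for LTED-B, 2.03, 1.91 and 1.88 CPM for LTED-D and 2.77, 3.18 and 2.51 CPM for LTED-E. For ACSL4, the fitted log2 fold changes in variants A, B, D and E were -0.99 ± 0.13, -1.17 ± 0.14, -0.70 ± 0.13 and -0.16 ± 0.12, with a largest adjusted p of 0.299. It was called in LTED-A, LTED-B and LTED-D, and the call in LTED-D was lost (-0.69 to -0.59) without LTED-D replicate 2 or 3 or parental replicate 1. ACSL4 was at 3.84, 2.34 and 2.29 CPM in SUM44F, 0.247 and 0.316 CPM in SUM44 LTED-A and 0.903, 1.09 and 1.09 CPM in SUM44 LTED-B. The fit put ACSL4 at log2 fold changes of -3.27 ± 0.31 for SUM44 LTED-A and -1.44 ± 0.23 for LTED-B (adjusted p 1.37e-05 and 0.000535). Without SUM44F replicate 1 the values were -2.99 ± 0.24 and -1.16 ± 0.19, both called. The call in SUM44 LTED-B was lost (-1.5 to -1.37) without any 1 of its libraries, and against SUM44PE the LTED-B value turned to 0.99.

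ACSL5, a synthetase of mitochondria and the endoplasmic reticulum, was called in opposite directions. ACSL5 measured 0.429, 0.297 and 0.583 CPM in the MM134 parental libraries, 0.983, 0.854 and 0.595 CPM for LTED-A, 1.23, 1.44 and 1.37 CPM for LTED-B, 1.71, 1.66 and 1.44 CPM for LTED-D and 0.519, 0.614 and 0.836 CPM for LTED-E. Against parental cells, ACSL5 gave log2 fold changes of 0.94 ± 0.26, 1.65 ± 0.25, 1.90 ± 0.25 and 0.63 ± 0.27 in the same order, with adjusted p up to 0.0627. LTED-B and LTED-D were called, from parental libraries of 11 to 18 counts. ACSL5 was at 17.0, 7.77 and 7.73 CPM in SUM44F, 0.198 and 0.193 CPM in SUM44 LTED-A and 0.331, 0.247 and 0.339 CPM in SUM44 LTED-B. SUM44F replicate 1 was above the other SUM44F libraries, and all variant samples were far below all 3. Against SUM44F, ACSL5 had a log2 fold change of -5.78 ± 0.44 for LTED-A and of -5.12 ± 0.36 for LTED-B, with adjusted p of 3.38e-06 and 1.38e-06. Without that library the values were -5.30 ± 0.23 and -4.64 ± 0.19, both called. ACSL6 stayed between 1.09 and 2.37 CPM and was not called.

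In glycerolipid assembly, DGAT2, an acyltransferase of the last step of triglyceride synthesis, was the only one of the 9 assembly members called in MM134. DGAT2 measured 5.92, 6.23 and 5.57 CPM in the MM134 parental libraries, 115, 118 and 120 CPM for LTED-A, 4.99, 5.76 and 5.30 CPM for LTED-B, 45.6, 47.5 and 47.6 CPM for LTED-D and 48.0, 46.7 and 47.1 CPM for LTED-E. For DGAT2, the fitted log2 fold changes in variants A, B, D and E were 4.31 ± 0.05, -0.14 ± 0.06, 3.00 ± 0.05 and 3.01 ± 0.05, with a largest adjusted p of 0.134. LTED-B libraries overlapped the parental ones, while LTED-A, LTED-D and LTED-E were several-fold above both. DGAT2 was at 74.3, 74.4 and 60.0 CPM in SUM44F, 39.2 and 43.3 CPM in SUM44 LTED-A and 76.4, 85.8 and 81.2 CPM in SUM44 LTED-B. The SUM44 log2 fold changes of DGAT2 were -0.75 ± 0.10 for LTED-A (adjusted p 0.000254) and 0.22 ± 0.09 for LTED-B (adjusted p 0.0701), and -0.70 and 0.27 without SUM44F replicate 1. LTED-A was called lower, also without SUM44F replicate 1, but not without SUM44F replicate 2 or either LTED-A sample (-0.82 to -0.64). DGAT1, which catalyses the same step, was called in no variant, with log2 fold changes of -0.38 to 0.10.

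LPIN1 and LPIN2, phosphatidate phosphatases that make diacylglycerol, were lower in both SUM44 variants. LPIN1 was at 23.7, 24.2 and 21.4 CPM in SUM44F, 10.8 and 9.51 CPM in SUM44 LTED-A and 13.0, 12.6 and 12.4 CPM in SUM44 LTED-B. Against SUM44F, LPIN1 had a log2 fold change of -1.19 ± 0.10 for LTED-A and of -0.87 ± 0.09 for LTED-B, with adjusted p of 6.92e-06 and 1.91e-05, and -1.17 and -0.85 without SUM44F replicate 1. LPIN2 was at 138, 143 and 120 CPM in SUM44F, 51.4 and 57.6 CPM in SUM44 LTED-A and 73.5, 72.5 and 64.5 CPM in SUM44 LTED-B. The SUM44F libraries were above all variant samples for both genes. The fit put LPIN2 at log2 fold changes of -1.29 ± 0.10 for SUM44 LTED-A and -0.93 ± 0.09 for LTED-B (adjusted p 3.66e-06 and 1.06e-05), and -1.27 and -0.91 without SUM44F replicate 1. Neither was called in MM134, where the log2 fold changes of LPIN1 were -0.41 to 0.03 and those of LPIN2 -0.57 to -0.30. All SUM44 calls of the pair remained with SUM44F replicate 1 left out, but against SUM44PE the call of LPIN1 in LTED-B was lost. GPAM, AGPAT1, AGPAT2, AGPAT3 and LPIN3 were called in no variant, with log2 fold changes between -0.44 and 0.44.

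Among the genes of droplets, lipolysis and carriage, PLIN2, a perilipin that coats droplets in most cells, differed in direction among the MM134 variants. PLIN2 measured 4.49, 4.72 and 4.96 CPM in the MM134 parental libraries, 3.71, 4.03 and 3.85 CPM for LTED-A, 2.25, 1.84 and 1.87 CPM for LTED-B, 8.43, 8.37 and 7.18 CPM for LTED-D and 12.3, 13.0 and 12.8 CPM for LTED-E. For PLIN2, the fitted log2 fold changes in variants A, B, D and E were -0.30 ± 0.09, -1.24 ± 0.10, 0.77 ± 0.09 and 1.43 ± 0.08, with a largest adjusted p of 0.00809. LTED-B was called lower, LTED-D and LTED-E higher, and LTED-A was not called. PLIN2 was at 25.4, 21.9 and 20 CPM in SUM44F, 21.1 and 23.4 CPM in SUM44 LTED-A and 34.8, 34.8 and 33.8 CPM in SUM44 LTED-B. Against SUM44F, PLIN2 had a log2 fold change of -0.01 ± 0.10 for LTED-A and of 0.62 ± 0.09 for LTED-B, with adjusted p of 0.957 and 0.000325, and 0.09 and 0.71 without SUM44F replicate 1. LTED-B was called higher, a call lost (0.54 to 0.63) without SUM44F replicate 2 or 3 or any 1 LTED-B library or against SUM44PE.

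PNPLA3, a lipase-family protein of droplets, was higher in MM134. PNPLA3 measured 2.72, 2.94 and 2.37 CPM in the MM134 parental libraries, 4.92, 4.90 and 4.56 CPM for LTED-A, 5.36, 4.82 and 5.25 CPM for LTED-B, 4.36, 3.42 and 3.46 CPM for LTED-D and 5.53, 4.79 and 5.19 CPM for LTED-E. Against parental cells, PNPLA3 gave log2 fold changes of 0.83 ± 0.11, 0.94 ± 0.11, 0.49 ± 0.12 and 0.95 ± 0.11 in the same order, with adjusted p up to 0.00152. LTED-A, LTED-B and LTED-E were called. In SUM44 it was not called (-0.68 ± 0.18 and -0.18 ± 0.15). PNPLA2, the main triglyceride lipase, and PLIN3 were called in no variant, with log2 fold changes of -0.13 to 0.42. FABP5, a fatty acid carrier, had at most 0.345 CPM, and since it has many near-identical pseudogenes its level is uncertain.

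**Figure D3:**
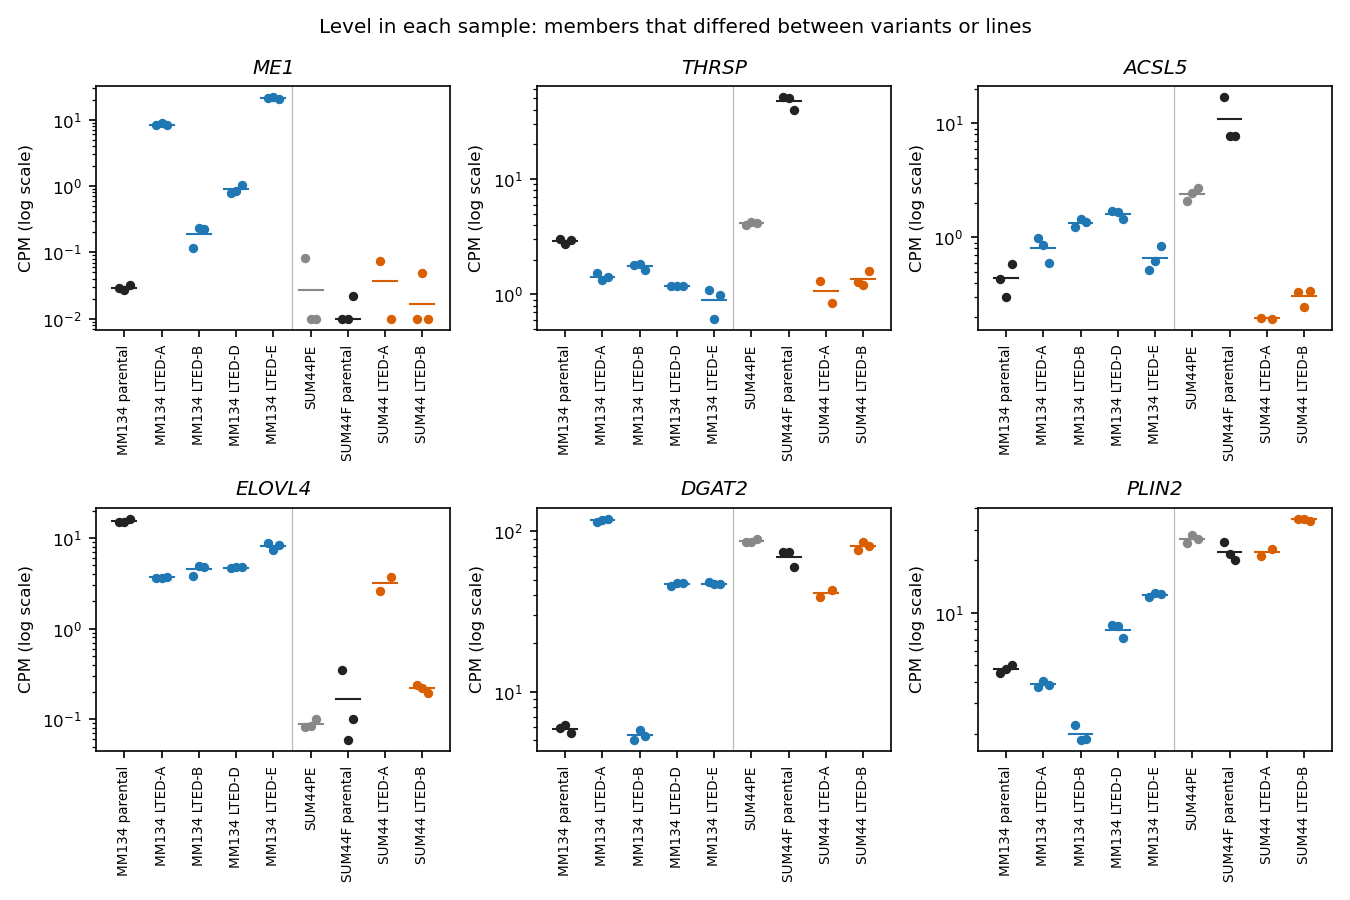
Level in each sample (points; bars are group means) of ME1, THRSP, ACSL5, ELOVL4, DGAT2 and PLIN2 in CPM on a log axis, with the colours of the plot of 8 members; samples at 0, and means under it, are drawn at 0.01 CPM. ME1 and DGAT2 spanned wide ranges among the MM134 variants, THRSP and ACSL5 were higher in SUM44F than in every other group, and the SUM44F library at 17.0 CPM of ACSL5 is replicate 1.

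Ratios of related enzymes per exon length restate the levels on another scale and were not tested. SCD over SCD5 was 4.30 ± 0.0438 (SD, n = 3) in MM134 parental cells and 80.2 ± 2.67, 20 ± 0.544, 23.3 ± 0.623 and 132 ± 3.65 in variants A, B, D and E. ELOVL6 over ELOVL5 was 0.0687 ± 0.00147 in parental cells and between 0.246 and 0.357 in the MM134 variants, and 0.0285 ± 0.000708 in SUM44F, 0.0626 ± 0.00671 (n = 2) in SUM44 LTED-A and 0.029 ± 0.00209 in SUM44 LTED-B. In SUM44, SCD over SCD5 was 37.8 ± 8.67 in SUM44F, 63.7 ± 4.80 (n = 2) in LTED-A and 40.1 ± 1.86 in LTED-B, so LTED-B lay within the SUM44F spread. DGAT2 over DGAT1 was 0.0558 ± 0.00343 in MM134 parental cells, 1.09 ± 0.0252 in LTED-A, 0.050 ± 0.00108 in LTED-B, 0.582 ± 0.00653 in LTED-D and 0.497 ± 0.00947 in LTED-E. In SUM44 it was 1.07 ± 0.0483 in SUM44F, 0.636 ± 0.0311 for LTED-A and 1.16 ± 0.0513 for LTED-B.

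**Figure D4:**
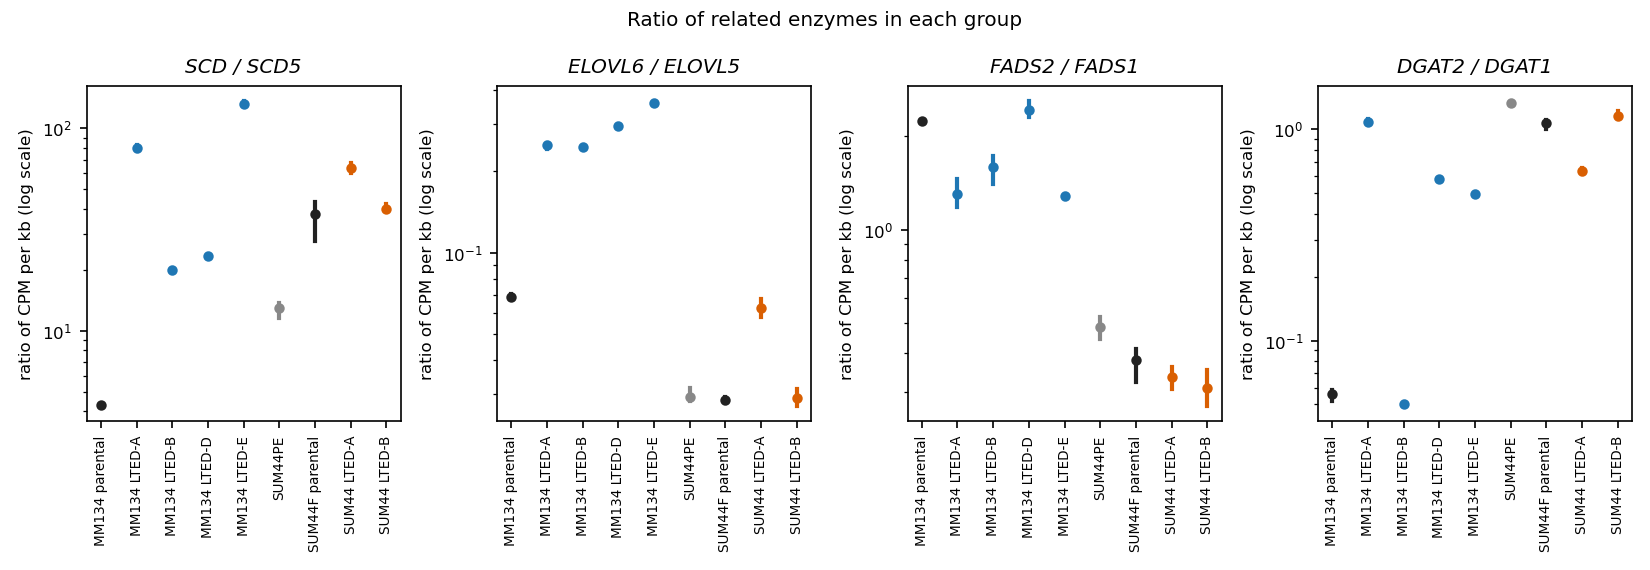
Ratio of CPM per kb of exon for 4 pairs of related enzymes by group (points, means; lines, lowest to highest sample; log axis; MM134 variants blue, SUM44 variants orange, parental groups black, SUM44PE grey). SCD over SCD5 and ELOVL6 over ELOVL5 were higher in all 4 MM134 variants than in parental cells.

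Whether the LTED effect differed between the lines was tested by subtracting the mean SUM44 effect (2 variants) from the mean MM134 effect (4 variants), both on the log2 scale. Of 37 members tested, 20 were called, 11 of them higher and 9 lower in MM134, where 20.9% of all genes tested were called, 10.8% higher and 10.2% lower. All 5 desaturases were called, from 0.81 ± 0.07 for SCD to -5.03 ± 0.11 for FADS2. ELOVL2 had the most negative difference, at -5.50 ± 0.10, and ACSL5 the most positive, at 6.71 ± 0.39. ELOVL6 was not called (0.02 ± 0.07), with an interaction adjusted p of 0.859. In the fit without SUM44F replicate 1, 11 and 9 members were called again. The SUM44 effect was taken against SUM44F, and SUM44PE was not used as the parent here. The SE comes from libraries of the same cultures and leaves out the spread among variants.

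**Figure D5:**
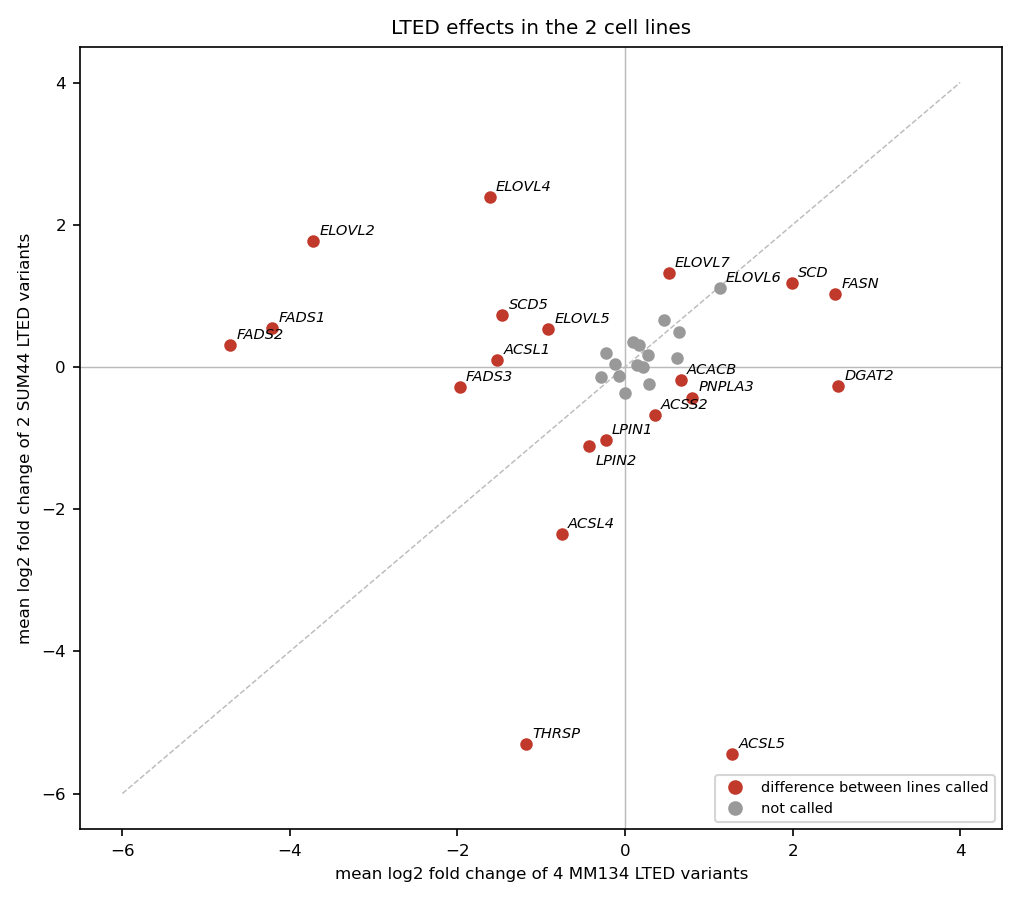
Mean effect (log2 fold change) in the 4 MM134 variants (horizontal) against that of the 2 SUM44 variants (vertical) for the members tested in both; red points are members whose difference between lines was called, and the dashed line marks equal effects. FADS1, FADS2 and ELOVL2 sit far to the left with SUM44 values above 0, while ACSL5 and THRSP sit at the bottom.

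The MM134 variants also differed from each other. In all, 15 members were called in at least 1 of the 6 pairs of variants, as were 20.7% of all genes tested. ME1 and PLIN2 were called in every pair. LTED-A was lowest in ELOVL2, at -2.70 against LTED-B, and highest in DGAT2, at 4.45 against LTED-B. LTED-E was highest in SCD, at -1.72 for LTED-B against LTED-E. FADS3, ELOVL5 and ELOVL6 were called in no pair. Between the 2 SUM44 variants, 4 members were called (background 7.42%, with 3.56% higher and 3.86% lower in LTED-A), with ELOVL2 (1.86 ± 0.10), ELOVL4 (3.87 ± 0.45) and ELOVL6 (1.11 ± 0.09) higher and DGAT2 (-0.97 ± 0.11) lower in LTED-A. This count fell to 2 without LTED-A replicate 1.

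The 2 SUM44 parental cultures differed in 6 members, all lower in SUM44PE, where 5.57% of all genes tested were called and 2.72% were called lower. These were FASN (-0.72 ± 0.11), THRSP (-3.53 ± 0.15), SCD (-1.04 ± 0.09), ACSL1 (-0.60 ± 0.06), ACSL4 (-2.42 ± 0.25) and ACSL5 (-2.18 ± 0.27). With SUM44F replicate 1 left out, FASN and ACSL1 were no longer called, nor were they without SUM44F replicate 2 or SUM44PE replicate 1, and FASN also not without SUM44PE replicate 2 or 3. SUM44PE shared low THRSP, ACSL4 and ACSL5 with the LTED variants, while FASN and SCD were lower in SUM44PE and higher in the variants than in SUM44F. With SUM44PE in place of SUM44F as the parent, LTED-A had 17 called members (background 14.3%) and LTED-B 13 (20.2%). LTED-A lost ACSL4 and gained ACACA and ACSL1 as higher and PNPLA3 as lower. LTED-B lost ACSS2, ACSL4, LPIN1 and PLIN2 and gained ACLY, FADS1 and ACSL1 as higher and ACACB and PNPLA3 as lower.

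The parental lines themselves differed in 23 members, 14 higher and 9 lower in MM134 than in SUM44F, where 38.1% of all genes tested were called, 18.9% higher and 19.2% lower. MM134 parental cells were higher in ELOVL4 (6.62 ± 0.26), ELOVL2 (4.08 ± 0.08), SCD5 (3.79 ± 0.08), FADS2 (3.49 ± 0.09) and FADS1 (0.93 ± 0.06), and lower in ACSL5 (-4.66 ± 0.31), THRSP (-4.04 ± 0.15) and DGAT2 (-3.57 ± 0.08). Of the members that fell in every MM134 variant, SCD5, FADS1, FADS2, ELOVL2 and ELOVL4 were each higher in parental MM134 than in SUM44F. THRSP, which also fell in every MM134 variant, was lower in parental MM134. Leaving out SUM44F replicate 1 changed no call, with ELOVL4 at 7.46. Without SUM44F replicate 3, 19 members were called, and ACLY, DGAT1, PLIN3 and PNPLA3 were lost, PNPLA3 also without MM134 parental replicate 2. Per kb of exon, SCD was the most abundant member in MM134 parental cells (90 CPM per kb) and ELOVL5 in SUM44F (54.8), just above SCD (54.6).

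Of 68 other genes of the pathway, taken from a fixed list, 12 were called higher and 6 lower in MM134 LTED-A, 10 and 7 in LTED-B, 10 and 9 in LTED-D, and 13 and 5 in LTED-E, of 63 tested, or 28.6%, 27.0%, 30.2% and 28.6% beside 20.3%, 15.9%, 17.6% and 19.0% of all genes. In SUM44, 7 were higher and 5 lower in LTED-A, and 8 and 7 in LTED-B, of 61 tested, or 19.7% and 24.6% beside 13.7% and 17.3% of all genes. Among genes that rose in all 4 MM134 variants were HACD2, a dehydratase of chain elongation (0.79 to 1.22), DBI, which binds acyl-CoA (0.89 to 1.94), and BSCL2 (seipin), which acts in droplet formation (0.83 to 1.10). SREBF1, which encodes SREBP1, was higher in both SUM44 variants (0.88 ± 0.11 and 0.85 ± 0.10, and 0.93 and 0.90 without SUM44F replicate 1) and in MM134 LTED-A, LTED-B and LTED-E (1.42 ± 0.04, 0.82 ± 0.04 and 1.08 ± 0.04), and missed the fold limit in LTED-D (0.51 ± 0.04). MOGAT2, a monoacylglycerol acyltransferase, was higher in all 6 variants (2.01 ± 0.22 in MM134 LTED-B, 3.14 ± 0.15 in SUM44 LTED-A).

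Other genes of that list fell. ME3, a mitochondrial malic enzyme, was lower in all 6 variants, with MM134 log2 fold changes of -4.31 to -2.68 and SUM44 ones of -3.49 ± 0.54 and -4.56 ± 0.55, and ACSS3, a mitochondrial short-chain synthetase, likewise (-3.98 to -3.36 in MM134, -1.31 ± 0.09 and -0.77 ± 0.08 in SUM44). Without SUM44F replicate 1, ME3 was no longer called in LTED-A (-3.26 ± 0.56), and the SUM44 calls of ACSS3, MOGAT2, AGPAT5 and MGLL remained. GPAT3, an acyltransferase of the first step of triglyceride synthesis, and PLIN5, a droplet protein, were lower in all 4 MM134 variants (-3.63 to -0.68 and -1.25 to -0.84). AGPAT5 was higher in both SUM44 variants (0.85 ± 0.09 and 1.16 ± 0.08). MGLL, which cleaves monoacylglycerol, was higher in both SUM44 variants (0.76 ± 0.08 and 0.97 ± 0.08) and in 3 MM134 variants but lower in LTED-E (-0.64 ± 0.03).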

How the data were processed

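RNA-Seq of MM134 and SUM44 cells was analysed. Per the labels, the library kit was one for total RNA that keeps the strand. The authors quantified reads with Salmon 0.6.0 (hg38, Ensembl release 82). The trimming and strand settings are not given in the sources used here. The deposited table holds these estimated counts, not normalized, for 60619 genes in 27 libraries, and every column belongs to a sample of the series.

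Estimated counts were rounded. Symbols and positions came from GENCODE v44 by Ensembl ID (56434 of 60619 matched). Replicates 2 and 3 of SUM44 LTED-A agreed more closely than sampling allows (chi-square per degree of freedom 0.312, against 2.35 to 58.1 for the other 26 pairs) and were averaged. Genes were filtered with filterByExpr, scaled by TMM and tested with edgeR 4.0.16 in R 4.3.3 (two-sided quasi-likelihood test; p-values were adjusted by Benjamini-Hochberg over every gene tested). There was 1 fit of the MM134 groups (26061 genes), 1 of SUM44F with the SUM44 variants (26834), 1 adding SUM44PE (27457) and 1 of both lines (29200) for the interaction and the parental lines. SE is the log2 fold change divided by the root of F.

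CPM is a count relative to its TMM-scaled library size. The members, lists and tests were chosen with earlier results of these data known. Values in every library are given for members called in the same direction in at least 3 MM134 variants or in both SUM44 variants, or called in opposite directions. Other pathway genes are named where called in 1 direction in all 4 MM134 or both SUM44 variants, at most 12 by mean size of change. A gene that met this rule is not reported here. Neighbours are the 20 tested genes at 5 CPM or more on each side. ME1 ratios have exact binomial intervals, which cover counting error only.

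Alternatives were RLE size factors, no filter on low counts, DESeq2 1.42.0, an adjusted p under 0.05, no minimum fold change, a replicate block, a fit of 2 groups, leaving out single libraries, LTED-A replicates 2 and 3 kept separate, and SUM44PE as the parent. Leaving out both MM134 libraries with raised fibroblast markers was added after seeing the data. On simulated data the procedure recovered 87 of 100 genes changed 2-fold in MM134 LTED-A with 0 false calls among 24942 genes. It recovered 48 of 100 in SUM44 LTED-A with 1 among 26140 and 64 of 100 in SUM44 LTED-B with 2 among 26134. The counts were drawn from a negative binomial model around parental means, and only genes above a minimum expected count were changed. Recovery of genes with few counts was not measured.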

Additional observations from a re-analysis of the deposited data

Results flagged for a closer look

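The LTED effect differed between the lines, by the interaction test (edgeR, mean effect in MM134 less mean effect in SUM44, on the log2 scale; 20.9% of all genes tested were called), for 20 members. Of the synthesis genes, these were FASN (1.48), THRSP (4.12), ACSS2 (1.02) and ACACB (0.85). FASN was higher in both lines and by more in MM134, while THRSP was lower in both and by less in MM134. All desaturases were among them, with SCD at 0.81, SCD5 at -2.17, FADS1 at -4.78, FADS2 at -5.03 and FADS3 at -1.70. The elongases ELOVL2 (-5.50), ELOVL4 (-4.05), ELOVL5 (-1.45) and ELOVL7 (-0.80) differed in the same direction. Of the acyl-CoA synthetases, ACSL1 differed by -1.64, ACSL4 by 1.58 and ACSL5 by 6.71. Of assembly and droplet genes, DGAT2 differed by 2.79, PNPLA3 by 1.23, LPIN1 by 0.79 and LPIN2 by 0.68. All 20 were called again in each fit that left out a library. The SUM44 effect was taken against SUM44F, and the interaction was not run with SUM44PE as the parent. SUM44PE was lower than SUM44F in FASN (-0.72), THRSP (-3.53), SCD (-1.04), ACSL1 (-0.6), ACSL4 (-2.42) and ACSL5 (-2.18). The size of the differences of these members therefore depends on the parent chosen, and whether any direction would change was not tested. The interaction compares 4 MM134 variants with 2 SUM44 variants. Of the 20, 13 were also called in at least 1 pair of MM134 variants, beside 20.7% of all genes tested in MM134. These were ACACB, FASN, THRSP, SCD, SCD5, FADS1, FADS2, ELOVL2, ELOVL4, ACSL1, ACSL4, ACSL5 and DGAT2. For these members the MM134 mean covers variants that differ. The share called in a pair among all genes called in the interaction was not computed. The error of the test comes from libraries of the same cultures and leaves out the spread among variants. For DGAT2, MM134 LTED-B was at -0.14 and SUM44 LTED-B at 0.22, while MM134 LTED-A, LTED-D and LTED-E were at 4.31, 3.0 and 3.01.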

How the results depend on the processing

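The counts of members called kept within 1.5 times of the reported ones in most fits. Without a minimum fold change they rose to 29 in MM134 LTED-A, 28 in LTED-B, 29 in LTED-E and 31 for pairs of MM134 variants. In SUM44 LTED-A, a fit of only the 2 groups called 9 members and lost ACLY, ACSS2, FASN, FADS1, ELOVL7 and DGAT2. Between SUM44 LTED-A and LTED-B, 8 members were called at an adjusted p under 0.05, 7 without a filter, 8 by DESeq2, and 2 to 3 when a library was left out. With each library left out, counts for MM134 variants A, B, D and E ranged over 18 to 19, 15 to 17, 18 to 19 and 19 to 20, and otherwise over 11 to 15 in SUM44 LTED-A, 9 to 12 in SUM44 LTED-B, 4 to 6 for SUM44PE, 20 to 21 for the interaction, 15 to 16 for pairs of MM134 variants and 19 to 23 for the parental lines. Without both MM134 libraries with raised fibroblast markers, ME1 and THRSP in LTED-B and ACSL4 in LTED-D were no longer called, and ELOVL7 in LTED-E was. The causes were not tested.

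Replicate numbers were not treated as pairs. Same-numbered deviations correlated between -0.113 and 0.0805 in MM134 and -0.0491 and 0.177 in SUM44. Differently numbered ones correlated between -0.146 and 0.135 in MM134 and -0.114 and 0.108 in SUM44. Of 78 sample comparisons, 22 were best with their own number. SUM44 LTED-A was not part of this check, and so few libraries cannot exclude a weak pairing. The replicate block called 13 members in SUM44 LTED-A (without FASN and FADS1), 11 in SUM44 LTED-B (without ACSL4), 19, 18, 19 and 19 in MM134 variants A, B, D and E, 6 for SUM44PE, 20 for the interaction, 15 for pairs of MM134 variants, 4 between the SUM44 variants and 23 between the parental lines.

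The sign of 1 called change turned, with ACSL4 in SUM44 LTED-B at 0.99 against SUM44PE, where it was not called. Other reversals were of changes not called as reported. With SUM44PE as parent, LTED-A gave SCD5 -0.06, ACSL3 -0.01, DGAT1 0.03, PLIN3 0.09 and PNPLA2 -0.22, and LTED-B gave ACSL1 0.62 and DGAT2 -0.08. Under RLE or DESeq2, DGAT1, PLIN2 and PLIN3 in LTED-A and ACSL1 in LTED-B were at 0.03, and without a filter DGAT1 and PLIN3 in LTED-A and ACSL1 in LTED-B were at 0.01 and PLIN2 at 0.00. In the fit of 2 groups DGAT1 and PLIN3 were at 0.01 and PLIN2 at 0.00, and with replicates separate DGAT1 was at 0.02, PLIN2 and PLIN3 at 0.03 and ACSL1 at 0.00. Leaving out single libraries, values not called ranged across 0, in MM134 from -0.02 to 0.05 for DGAT1 and from -0.42 to 0.38 for FABP5 in LTED-B and from -0.20 to 0.60 for FABP5 in LTED-E. In SUM44 LTED-A they ranged from -0.14 to 0.06 for ACACB, -0.18 to 0.21 for ACSL3, -0.17 to 0.23 for GPAM, -0.09 to 0.10 for DGAT1, -0.09 to 0.10 for PLIN2 (-0.07 without SUM44F replicate 3) and -0.08 to 0.08 for PLIN3. In SUM44 LTED-B they ranged from -0.01 to 0.13 for ACACA, -0.02 to 0.23 for FADS2, -0.06 to 0.04 for ACSL1, -0.01 to 0.09 for GPAM and 0.00 to 0.20 for DGAT1.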
